A study of Mus musculus with 6 samples.

Results

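The genes described here are 36 genes of the endoplasmic reticulum (ER): chaperones and their cofactors, disulfide enzymes, lectin chaperones, stress sensors, ER-associated degradation factors, subunits of the translocation channel, and the ubiquitin-like modifier Ufm1. They were chosen by symbol from the microarray's gene annotation, and the question was whether they moved apart from the genes of the amino acid response in mouse T-cell leukemia that had lost Hes1. Of the 36, 35 had a named probe and 27 were detected well enough to be tested, among 8836 named genes tested in all. Expression was measured on 6 one-colour Illumina bead arrays, 3 KO and 3 WT. All 6 came from T-ALL (T-cell acute lymphoblastic leukemia) with Hes1flox/flox alleles, Cre-ERT2 at the Rosa26 locus, which is active in most cell types, and ΔE-NOTCH1. ΔE-NOTCH1 is an activated NOTCH1, here delivered by retrovirus to bone marrow cells that were transplanted into irradiated, immunodeficient NRG mice. The labels give the KO samples 36 hours of 4-hydroxy-tamoxifen, which activates the Cre recombinase and deletes the floxed Hes1 gene (Hes1-/-), and the WT samples 36 hours of ethanol, the solvent.

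Hes1, a transcriptional repressor induced by NOTCH1, was detected on 0 of 3 KO arrays and on 3 of 3 WT arrays. Its normalised log2 intensity was 4.54 ± 0.11 in KO and 10.98 ± 0.16 in WT (SD, n = 3 each), at least 53.5-fold lower in KO, with an adjusted p of 1.0e-06 by limma with Benjamini-Hochberg adjustment. No array was labelled as treated with 4-hydroxy-tamoxifen with Hes1 intact, so loss of Hes1, the drug and Cre activity cannot be told apart. The labels call the replicates biological without saying whether they were separate leukemias, mice or cultures, and p-values then measure only the spread between these arrays. The labels describe both leukemia cells treated in culture and tumours of mice injected with tamoxifen (5 mg per mouse) or vehicle, and do not settle which gave the RNA. They state no age of the mice.

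KO replicate 1 stood apart from the other arrays: its mean raw signal per probe was 520, against 631 and 687 on the other KO arrays and 703 to 713 on the WT arrays. The group means were 612 ± 85.2 in KO and 708 ± 5.28 in WT (SD, n = 3 each; two-sided exact permutation test, p = 0.1, the smallest this design allows). The mean correlation of KO replicate 1 with the other arrays was 0.981, against 0.990 to 0.991 for each of the other 5. Its count of detected probes was not low, 16414 against 16232 and 16685 on the other KO arrays and 15807 to 16372 on the WT arrays. Of 9 T-cell precursor markers with a probe, 7 were detected on 3 or more arrays, among them the CD3 chains Cd3e, Cd3d and Cd3g, while Cd8a was detected on none. Summed raw signals of that list, which carry each array's overall brightness, ran over 43810 to 69636 in KO and 69073 to 75605 in WT. After normalisation the log2 changes were -0.07 for Cd3e, -0.07 for Cd3d and -0.01 for Cd3g, with a median of -0.07 over the 7 detected markers. No marker passed the test. Cd28, a costimulatory receptor (-0.56), and Ptcra, the pre-T-cell receptor chain (-0.25), measured lower on every KO array. These were 2 of 7 T-cell markers (28.6%), against 16.3% of all named genes whose groups did not overlap. Rag1 (0.17) and Cd8b1 (0.13) had higher means in KO, with overlap. Mzb1, a plasma cell ER protein, had -0.32 without overlap, but was near background and detected on 2 of 3 KO arrays. Sdc1, the other plasma cell marker tested, had 0.14 with overlap. Pecam1, an endothelial and leukocyte adhesion molecule (0.53), measured higher on every KO array, and the stromal marker Pdgfrb had -0.0061. Of 7 B or plasma cell markers, which matter here because plasma cells are rich in ER, 2 were detected on 3 or more arrays, and Cd79b, Pax5, Prdm1 and Jchain on none. Their sums were 1022.5 to 1234.5 in KO and 1198.7 to 1229.5 in WT. Of 8 myeloid markers, 0 were detected on 3 or more arrays, of 3 erythroid markers 1, and of 6 stromal or endothelial markers 2. The summed raw signals were 1082.9 to 1208.1 in KO and 1106.9 to 1163 in WT for the myeloid list, 377.2 to 492.2 in KO and 429.2 to 515.7 in WT for the erythroid list, and 1658.2 to 1886.3 in KO and 1517.7 to 1706.6 in WT for the stromal list. The part of other cell types in the values below was not tested, and in bulk RNA fewer cells of a type and less RNA per cell cannot be told apart.

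Secreted and membrane proteins enter the ER through the Sec61 channel, fold there with the help of chaperones and disulfide enzymes, and leave for degradation in the cytosol when folding fails. Unfolded protein is sensed by 3 membrane proteins encoded by Ern1 (IRE1), Eif2ak3 (PERK) and Atf6, and the transcription factors XBP1 and ATF6 then raise chaperone and degradation genes. PERK instead phosphorylates the initiation factor eIF2 and increases translation of ATF4, which drives genes of amino acid synthesis and transport. The kinase GCN2 reaches the same ATF4 branch when amino acids are scarce, so that branch can move without the chaperones. Its gene, Eif2ak4, had 2 probes, neither detected well enough to be tested here.

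The ER and amino acid response lists differed in how often their promoters held the elements below, though most promoters of either list lacked them. ATF6 and XBP1 act through the ER stress element ERSE, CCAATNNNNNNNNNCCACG, and the related ERSE-II, ATTGGNCCACG, which share the bases CCACG. In RefSeq promoter windows of GRCm38.p6, from 250 bases before to 50 after each gene's start and read on both strands, ERSE was found for 9 of the 30 ER genes with a window (30%), and for 37 of 27025 genes overall (0.137%). These were Hspa5, Hsp90b1, Dnajc3, Creld2, Pdia6, Ero1lb, Calr, Canx and Syvn1. None of the 30 amino acid response genes with a window held it. The core of the ATF4 element, TGATGNAA, was found for 1 of 30 ER genes, Herpud1, and for 1219 genes overall (4.51%). It was found for 9 of 30 amino acid response genes (30%), of which only Trib3, Asns and Slc1a4 were tested for a change. On the list of aminoacyl-tRNA synthetases, the enzymes that charge tRNAs, and the tRNA exporter Xpot, 5 of 9 genes with a window held it (55.6%). ERSE-II was found for Dnajb11 and Herpud1 among the ER genes and for 12 genes overall (0.0444%). The XBP1 core TGACGTGG was found for 0 of 30 ER genes and for 193 genes overall (0.714%). It shares TGA with the ATF4 core, and among the genes of these lists no match of one motif overlapped a match of another. A match is a run of letters and not a measured binding site.

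The stretches below carry these elements in capitals and are written along each gene's own strand. They show an untested chaperone (Hspa5), members whose values differed in direction (Hsp90b1, Calr, Pdia6, Syvn1), the one member with both kinds of element (Herpud1) and an amino acid response gene (Asns). They lie at chr2:34772005-34772063 on the plus strand, chr10:86705513-86705676 on the minus strand, chr8:84847055-84847113 on the minus strand, chr12:17266471-17266529 on the plus strand, chr19:6046512-6046570 on the plus strand, chr8:94386297-94386407 on the plus strand and chr6:7693210-7693252 on the minus strand, all upstream of the annotated start. In Calr and in the second site of Hsp90b1 the element runs in reverse, with CGTGG first. In Herpud1 the first capitals are the ATF4 core in reverse and the second are ERSE-II.
Hspa5: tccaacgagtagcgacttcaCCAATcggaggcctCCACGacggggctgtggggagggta
Hsp90b1: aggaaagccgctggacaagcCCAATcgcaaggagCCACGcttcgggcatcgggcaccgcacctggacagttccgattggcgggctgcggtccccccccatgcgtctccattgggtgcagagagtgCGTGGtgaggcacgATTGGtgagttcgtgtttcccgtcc
Calr: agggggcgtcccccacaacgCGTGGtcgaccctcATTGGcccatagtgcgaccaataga
Pdia6: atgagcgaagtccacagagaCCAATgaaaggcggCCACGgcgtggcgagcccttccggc
Syvn1: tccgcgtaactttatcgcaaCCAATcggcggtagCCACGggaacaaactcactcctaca
Herpud1: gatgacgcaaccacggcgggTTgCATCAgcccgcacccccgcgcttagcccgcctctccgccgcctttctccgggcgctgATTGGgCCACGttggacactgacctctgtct
Asns: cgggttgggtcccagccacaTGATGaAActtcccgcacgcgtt

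None of the 27 tested ER genes passed the test in KO against WT, with limma adjusted p-values of 0.509 to 0.996 over all 11241 features; 7 of the 8836 named genes passed (0.0792%). At an unadjusted p under 0.05 there was 1 ER gene of 27, lower in KO (3.70%), and 776 genes in all (8.78%), of which 4.24% were lower and 4.54% higher. The ranges of KO and WT values were separate for 4 ER genes (14.8%), 3 lower and 1 higher, against 16.3% of all named genes, 7.85% lower and 8.48% higher. These shares were near or under the background. The median log2 change over the 27 genes was -0.09 and the range -0.54 to 0.19, against a median of 0.0017 over all named genes. Values were lower in KO for 18 of the 27 genes, against 49.6% of all named genes. The 95% interval of the change, not adjusted for the number of genes, lay within 2-fold either way for 26 of the 27, against 95.5% of all named genes, and Calr was the exception. Scaling by the array median instead of quantiles moved the median of all named genes to -0.18 and that of the ER genes to -0.29, a difference of -0.12 between them. Then 26 of the 27 were lower, every one but Pdia6.

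**Figure D1:**
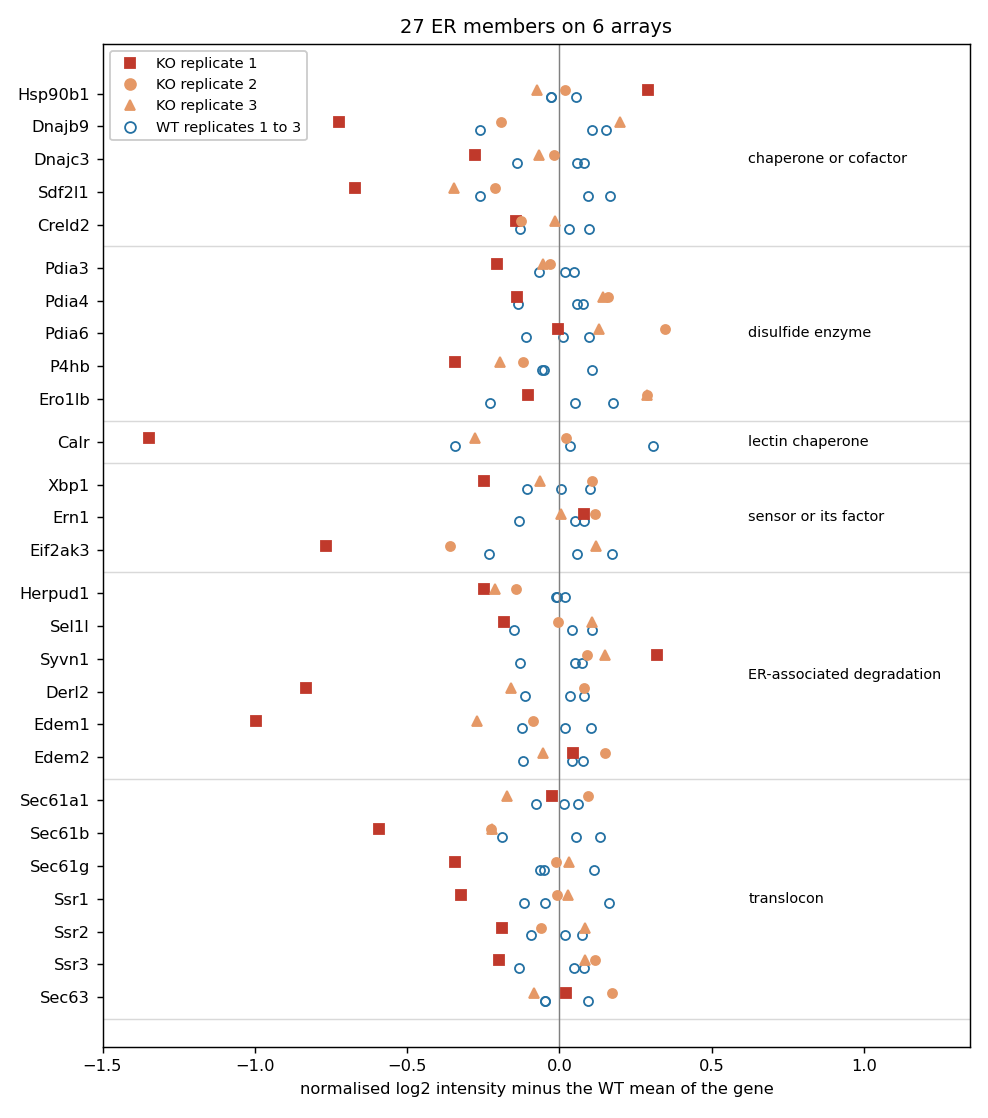
Each point is 1 array: the normalised log2 intensity of 1 of the 27 tested ER genes minus that gene's WT mean, KO drawn just above WT and genes grouped by role. The KO replicate 1 squares lie leftmost for 19 genes, far left for Calr, Edem1, Derl2, Eif2ak3 and Dnajb9.

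**Figure D2:**
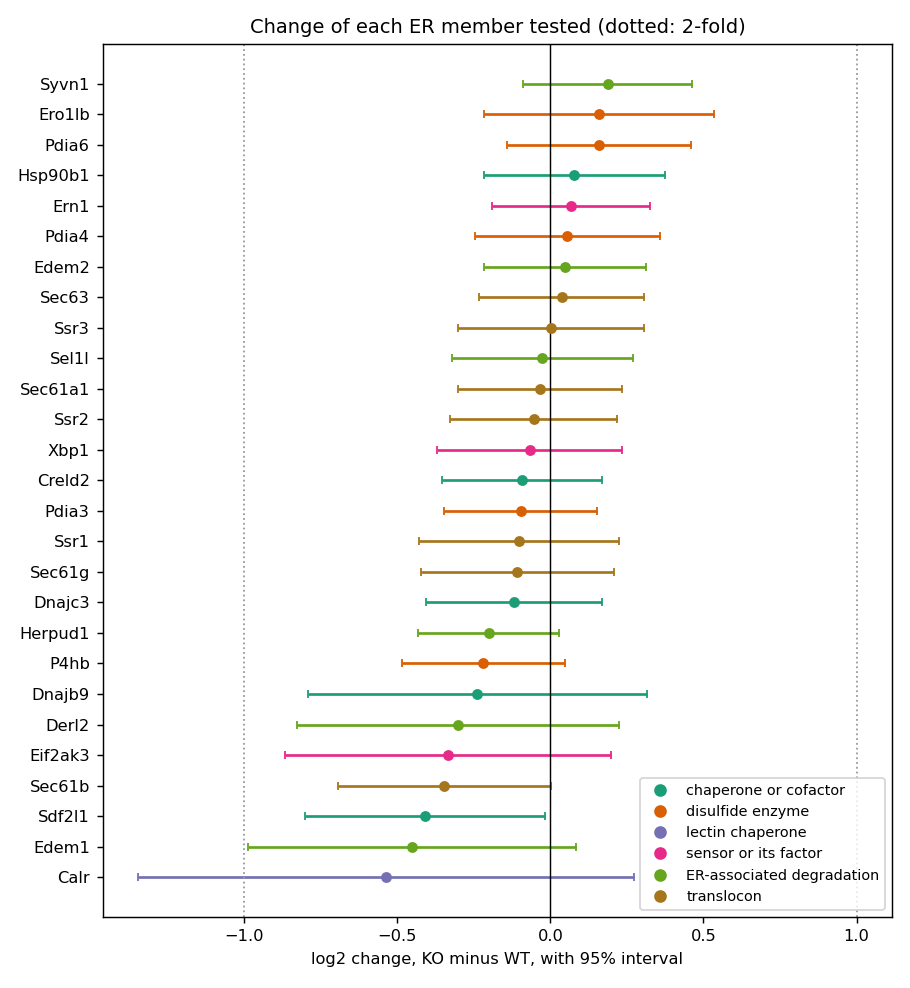
Log2 change in KO minus WT of the 27 tested ER genes with its 95% interval from limma. The interval of Sdf2l1 alone leaves out 0, from -0.80 to -0.02, and that of Calr alone reaches beyond 2-fold.

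Among chaperones and cofactors, 5 of the 9 genes were tested and 4 of the 5 measured lower in KO, with a median of -0.12, and of -0.04 without KO replicate 1. Sdf2l1, a cofactor of the ER Hsp70 chaperone, measured 9.48, 9.94 and 9.80 on the KO arrays and 9.89, 10.24 and 10.31 on the WT arrays. KO replicate 1 was the lowest array and the groups overlapped by KO replicate 2 and WT replicate 1 alone. The log2 change was -0.41 ± 0.17 (SE), 0.753 of the WT level, with an unadjusted p of 0.0428 and a limma adjusted p of 0.509. Dnajb9, a J-domain cofactor that restrains IRE1, measured 8.13, 8.66 and 9.05 in KO and 8.59, 9.003 and 8.95 in WT. The KO arrays held both its lowest and its highest value, and the change was -0.24. Leaving out KO replicate 1 gave 0.0034, KO replicate 3 gave -0.46 and WT replicate 1 gave -0.37. Dnajc3 (P58IPK), another J-domain cofactor, ranged over 8.76 to 9.02 in KO and 8.90 to 9.12 in WT, a change of -0.12. Creld2, a cysteine-rich stress-induced protein, ranged over 9.73 to 9.87 in KO and 9.75 to 9.98 in WT, a change of -0.09 with a second probe at -0.14. Both overlapped between the groups. Hsp90b1 (GRP94), the Hsp90 of the ER, measured 12.37, 12.10 and 12.01 in KO and 12.06, 12.14 and 12.06 in WT, a change of 0.08 with KO replicate 1 the highest array.

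The central chaperone could not be followed. Hspa5 (BiP, the ER Hsp70) had 1 probe, with raw intensities of 130.7, 156.8 and 161.4 in KO and 164.7, 149.3 and 152.1 in WT, detected on 1 WT array only. The probe was not above background on the other 5 arrays, and the groups were not compared. The same held for Hyou1, an Hsp70-like exchange factor (121 to 175.1, detected on 1 WT array), for Manf, a stress-induced secreted factor (127.7 to 152.3, detected on no array), and for Canx, the membrane lectin chaperone calnexin (123.5 to 154, on no array). Atf6, the sensor that is cleaved into a transcription factor, Derl1, a relative of Derl2, and Sec62, a partner of Sec63, had 2 probes each, and Ufm1 had 1, all detected on no array. Dnajb11, a J-domain cofactor of BiP, had no named probe and was not analysed here. These 8 genes with an undetected probe say nothing about their expression in either group.

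All 5 disulfide enzymes were tested, and 2 measured lower in KO, with a median of 0.05, which ran over -0.01 to 0.15 with each array left out, lowest without WT replicate 2 and highest without KO replicate 1. Leaving out KO replicate 2 gave 0.0017 and KO replicate 3 gave 0.0101, while leaving out WT replicate 1 gave 0.08 and WT replicate 3 gave 0.09. P4hb, protein disulfide isomerase itself, measured 12.46, 12.68 and 12.61 in KO and 12.91, 12.75 and 12.74 in WT. Every KO value lay below every WT value, by a small margin. The change was -0.22 ± 0.11 (SE), with an unadjusted p of 0.0940 and a limma adjusted p of 0.612. Pdia3, the isomerase that works with the lectin chaperones, ranged over 12.88 to 13.06 in KO and 13.02 to 13.14 in WT, a change of -0.10. Pdia4, a further isomerase, ranged over 10.03 to 10.33 in KO and 10.03 to 10.25 in WT, a change of 0.05. Pdia6, another, ranged over 6.20 to 6.55 in KO and 6.10 to 6.30 in WT, a change of 0.16 with a second probe at 0.28. The oxidase Ero1lb, which reoxidises isomerases, ranged over 7.87 to 8.27 in KO and 7.75 to 8.15 in WT, a change of 0.16. The groups of these 4 genes overlapped. Of the lectin chaperones, Calr (calreticulin) was tested. It measured 7.76, 9.13 and 8.83 in KO and 9.42, 8.77 and 9.15 in WT. KO replicate 1 alone stood below the rest, and the other KO values lay inside the WT range. The change was -0.54 ± 0.35 (SE, 95% interval -1.35 to 0.27), its adjusted p by limma was 0.658, and leaving out KO replicate 1 gave -0.13 and KO replicate 2 gave -0.81.

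The sensors and their factor gave no common direction, with 2 of 3 lower and a median of -0.07. Leaving out KO replicate 1 gave a median of 0.02 and KO replicate 2 one of -0.16, while leaving out WT replicate 1 gave -0.12 and WT replicate 3 gave -0.02. Xbp1, whose spliced transcript encodes the factor made by IRE1 signalling, measured 12.23, 12.59 and 12.42 in KO and 12.37, 12.49 and 12.58 in WT. The groups overlapped and the change was -0.07; the array does not report the splicing that activates Xbp1. Ern1 (IRE1) ranged over 5.91 to 6.02 in KO and 5.77 to 5.99 in WT, a change of 0.07 on a dim probe (raw intensities 165.7 to 194.1). Eif2ak3 (PERK) measured 5.29, 5.70 and 6.18 in KO and 5.83, 6.12 and 6.23 in WT. KO replicates 1 and 2 were the lowest arrays and KO replicate 3 lay inside the WT range. A second probe was detected on no array, and the probe used was dim, with raw intensities of 146.5 to 207.9. KO replicate 1, at 5.29, lay close to that array's lowest detected value of 5.24. The change was -0.33 ± 0.23 (SE), its adjusted p by limma was 0.666, and the value was -0.12 without KO replicate 1, -0.56 when KO replicate 3 was left out and -0.10 with the authors' log2 values.

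In ER-associated degradation 6 of 7 genes were tested and 4 measured lower in KO, with a median of -0.11, and of 0.0052 without KO replicate 1. Herpud1, a membrane scaffold of the retrotranslocation complex and the member with both promoter elements shown above, measured 12.40, 12.51 and 12.44 in KO and 12.64, 12.67 and 12.64 in WT. All KO arrays lay below all WT arrays, with the smallest spread within groups of the 27 genes (SD 0.0388 on the log2 scale). The change was -0.20 ± 0.10 (SE), with an unadjusted p of 0.0787 and a limma adjusted p of 0.591. A second Herpud1 probe gave -0.18, and without KO replicate 1 the change was -0.18.

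Edem1, a mannosidase-like protein that marks misfolded glycoproteins for disposal, measured 8.53, 9.44 and 9.26 in KO and 9.55, 9.41 and 9.63 in WT. KO replicate 1 was far below the rest and KO replicate 2 lay inside the WT range. The change was -0.45 ± 0.23 (SE), with an unadjusted p of 0.0873 and a limma adjusted p of 0.609, and it was -0.18 without KO replicate 1. Derl2, a channel-forming rhomboid-like protein, measured 7.33, 8.24 and 7.997 in KO and 8.24, 8.19 and 8.04 in WT. Its change was -0.30 on the probe used, -0.04 without KO replicate 1, -0.50 when KO replicate 2 was left out, and 0.21 on its second probe.

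Syvn1 (HRD1), the ubiquitin ligase of the pathway, went the other way at 12.29, 12.06 and 12.12 in KO and 12.04, 12.02 and 11.84 in WT. All KO values exceeded all WT values, and the change was 0.19 ± 0.12 (SE), with an unadjusted p of 0.154 and a limma adjusted p of 0.657. It was 0.12 without KO replicate 1, the highest array, 0.12 without WT replicate 3, the lowest, and -0.04 under scaling by the array median. Its partner Sel1l, the adaptor that holds HRD1 in its complex, ranged over 8.48 to 8.77 in KO and 8.51 to 8.77 in WT, a change of -0.03. Edem2, a relative of Edem1, ranged over 11.52 to 11.73 in KO and 11.46 to 11.65 in WT, a change of 0.05. The probes of Sel1l and Edem2 spread widely, from -0.57 to -0.03 for the 3 of Sel1l and from -0.32 to 0.05 for the 4 of Edem2.

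**Figure D3:**
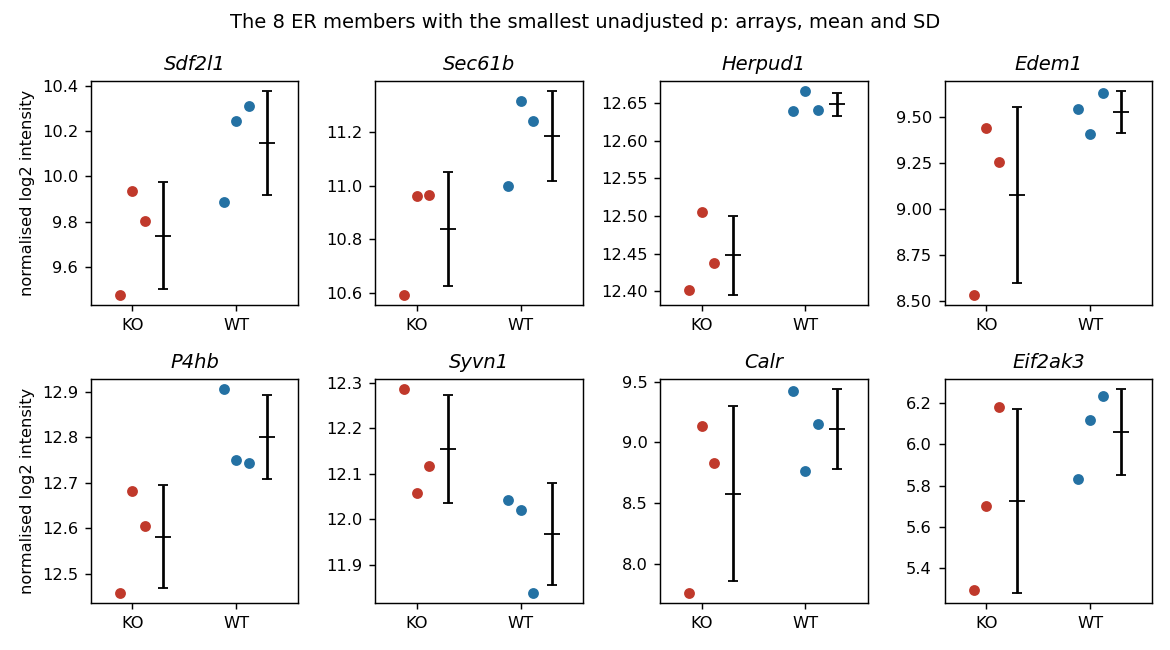
Normalised log2 intensity on each array, KO left of WT, for the 8 ER genes with the smallest unadjusted p, each panel on its own axis, with the group mean ± SD beside the points (n = 3). Sec61b, Herpud1, P4hb and Syvn1 have groups that do not overlap, and KO replicate 1 is the lowest array for every gene shown but Syvn1.

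Of the 8 translocon genes 7 were tested and 5 measured lower in KO, with a median of -0.05. Leaving out KO replicate 1 gave a median of 0.0104, KO replicate 2 one of -0.10, KO replicate 3 one of -0.12 and WT replicate 1 one of -0.02. Sec61b, the small beta subunit of the channel, measured 10.59, 10.96 and 10.96 in KO and 10.997, 11.32 and 11.24 in WT. The groups did not overlap, though KO replicates 2 and 3 came close to WT replicate 1. The change was -0.35 ± 0.15 (SE), with an unadjusted p of 0.0513 and a limma adjusted p of 0.543. It was -0.22 without KO replicate 1, and a second probe gave -0.12. Sec61a1, which forms the pore, ranged over 9.83 to 10.10 in KO and 9.93 to 10.06 in WT, a change of -0.03 with a second probe at 0.10. Sec61g, the gamma subunit, ranged over 12.58 to 12.95 in KO and 12.86 to 13.04 in WT, a change of -0.11. Both overlapped between the groups, as did the rest of the translocon. Ssr1, a subunit of the translocon-associated protein complex, ranged over 8.29 to 8.64 in KO and 8.50 to 8.78 in WT, a change of -0.10. Ssr2, of the same complex, ranged over 12.31 to 12.58 in KO and 12.40 to 12.57 in WT, a change of -0.05. Ssr3, also of that complex, ranged over 11.98 to 12.29 in KO and 12.04 to 12.26 in WT, a change of 0.0018. For all 3, the lowest array was KO replicate 1. Sec63, which recruits BiP to the channel, ranged over 10.90 to 11.15 in KO and 10.93 to 11.07 in WT, a change of 0.04 with further probes at -0.13 and -0.03. Over all roles, 10 ER genes had a second detected probe, and 8 of these 14 further probes shared the sign of the probe used.

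The lower values of the ER genes gathered on 1 array. KO replicate 1 was the lowest of the 6 arrays for 19 of the 27 genes (70.4%), against 31.5% of all named genes. It was the lowest also for 40 of the 78 genes of the other ER lists (51.3%). These were 17 of 24 targeting, signal peptidase and oligosaccharyltransferase genes (70.8%), 10 of 17 other degradation factors (58.8%) and 6 of 16 other folding genes (37.5%). The share was nearer the background for further signalling genes, 5 of 15 (33.3%), and UFM1 conjugation genes, 2 of 6 (33.3%). On the amino acid response list it was 12 of 22 (54.5%), and on the aminoacyl-tRNA synthetase list 2 of 13 (15.4%). The median over the 27 genes of the value minus the WT mean was -0.21 on KO replicate 1, -0.0036 on KO replicate 2 and -0.05 on KO replicate 3, and 0.05, 0.02 and 0.04 on the WT arrays. By role, the same median on KO replicate 1 was -0.28 for chaperones and cofactors, -0.14 for disulfide enzymes, -0.25 for sensors, -0.21 for degradation factors and -0.20 for the translocon. The lowest median on a WT array was -0.13 for chaperones and cofactors, -0.11 for disulfide enzymes and -0.11 for sensors. It was -0.06 for degradation factors and -0.05 for the translocon, so disulfide enzymes on KO replicate 1 were little apart from a WT array. On KO replicates 2 and 3 the role medians lay between -0.12 and 0.16, with Calr, the one lectin chaperone tested, at 0.02 and -0.28. Without KO replicate 1 the median change was 0.0034, 13 of 27 genes measured lower in KO, and 0 were at an unadjusted p under 0.05. That last count was 0 also without WT replicate 2 and without WT replicate 3, where the median change was -0.09 and -0.07. KO replicate 1 was the dimmest array with the lowest correlation to the others, and the part of array quality in its values was not tested.

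The median of the amino acid response genes was below 0 on every KO array. Of 33 listed targets and partners of ATF4, 22 were tested and 21 measured lower in KO, with a median of -0.28 and a range of -0.94 to 0.07. None passed the test, 8 were at an unadjusted p under 0.05, all lower (36.4%, background 4.24%), and for 11 all KO values lay below all WT values (50%, background 7.85%). The median of the value minus the WT mean was -0.34, -0.20 and -0.27 on the KO arrays and 0.08, 0.0095 and -0.08 on the WT arrays. Without KO replicate 1 the median change was -0.21, with 21 of 22 genes lower and 7 at an unadjusted p under 0.05. The share of all named genes at that threshold was not counted for this fit. The ER median lay 0.18 above the amino acid response median over all arrays and 0.22 above it without KO replicate 1. With each array left out in turn this gap ran over 0.14 to 0.23. The gap is a description and carries no test.

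**Figure D4:**
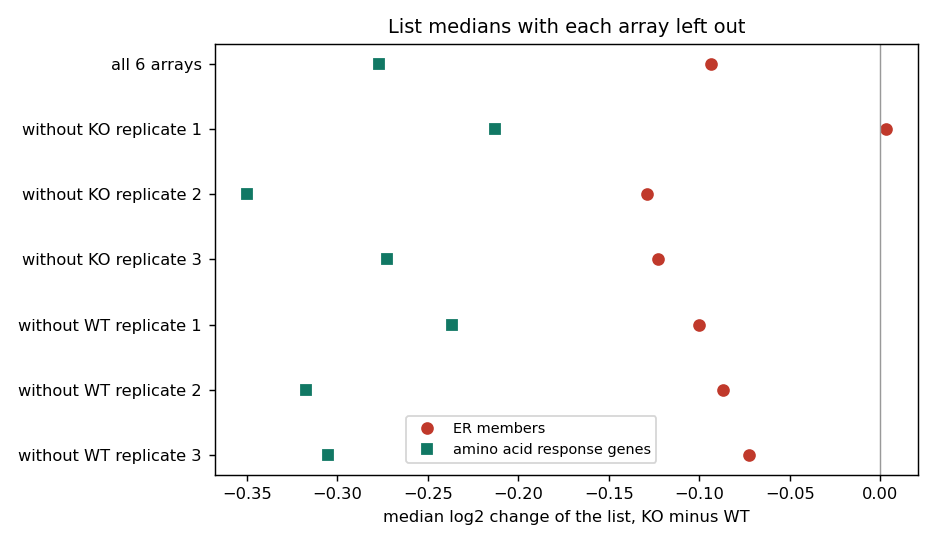
Median log2 change in KO minus WT of the ER genes (circles) and the amino acid response genes (squares), over all 6 arrays and with each array left out. The ER median moves to 0.0034 without KO replicate 1, while the amino acid response median stays between -0.35 and -0.21.

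Single amino acid response genes showed larger differences than any ER gene, 5 of them below -0.54, the value of Calr. Trib3, a pseudokinase induced by ATF4, measured 8.37, 8.56 and 8.16 in KO and 9.43, 9.27 and 9.20 in WT, a change of -0.94 ± 0.14 (SE; limma adjusted p = 0.0932). Eif4ebp1, a translation repressor, measured 10.27, 10.55 and 10.49 in KO and 11.25, 11.29 and 11.13 in WT, a change of -0.79 ± 0.12 (SE; limma adjusted p = 0.109). Asns, asparagine synthetase, whose ATF4 core is printed above, measured 9.94, 10.12 and 10.08 in KO and 10.73, 10.59 and 10.68 in WT, a change of -0.62 ± 0.11 (SE; limma adjusted p = 0.136). The groups of each were separated by more than the spread within them. Gpt2, an alanine aminotransferase, had a change of -0.84, and -0.34 with the authors' log2 values, and Ddit3 (CHOP), the stress factor reached from PERK through ATF4, one of -0.43. Atf4 itself had -0.12, and its regulation by translation is not measured by RNA. Trib3 passed the test under 5 of 15 alternatives (limma adjusted p 0.0225 to 0.446), Eif4ebp1 under 4 (0.0161 to 0.446) and Asns under 3 (0.0292 to 0.552). No ER gene passed under any of the 15.

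**Figure D5:**
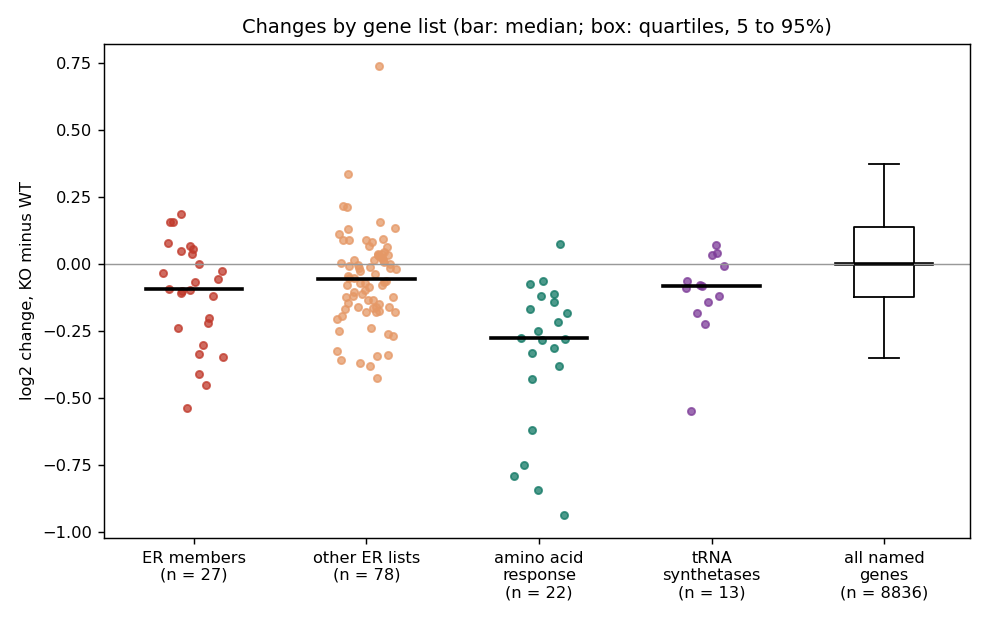
Log2 change in KO minus WT of each tested gene, by list, with the list medians as bars; for all named genes the box spans the quartiles and the whiskers 5 to 95%. The amino acid response genes spread to -0.94 with a median of -0.28, and the ER genes lie between -0.54 and 0.19 with a median of -0.09.

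The aminoacyl-tRNA synthetases charge tRNAs and are often raised by ATF4. Their list also holds Xpot, a tRNA exporter and not a synthetase, with a change of 0.04. The median over the 13 genes was -0.08, with 10 lower and none past the test. The ATF4 core was found for 5 of the 9 with a window (55.6%), a larger share than among the amino acid response genes (30%). Yars, the tyrosyl enzyme, was detected on 1 of 3 KO arrays and 3 of 3 WT arrays, and its change of -0.55 was -0.16 with the authors' log2 values. Sars, the seryl enzyme, had -0.22, and -0.14 without KO replicate 1 and -0.34 when KO replicate 2 was left out. Among the ER genes, the 7 tested genes with ERSE had a median change of 0.08, 3 of them lower, and the 18 with a window and no ERSE had -0.10, 13 of them lower.

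The wider ER machinery, 78 tested genes of 93 listed, also held no gene past the test. Of them, 2 were at an unadjusted p under 0.05 (2.56%, background 8.78%), 51 measured lower in KO (65.4%, background 49.6%), and the median was -0.06. Among other degradation factors 16 of 17 measured lower (94.1%, background 49.6%) with a median of -0.10, and none was at an unadjusted p under 0.05. KO replicate 1 was the lowest array for 10 of the 17 (58.8%). Herpud2, a relative of Herpud1, had -0.38, but -0.10 without KO replicate 1 and -0.57 when KO replicate 2 was left out. H13, the signal peptide peptidase, had -0.18, and -0.10 without KO replicate 1. Other folding and glycan quality control genes split evenly, 8 of 16 lower, with Sil1, the nucleotide exchange factor of BiP, at -0.36 and the prolyl isomerase Ppib at -0.27. Without KO replicate 1, the lowest array for both, these were -0.21 and -0.14. Of 24 targeting, signal peptidase and oligosaccharyltransferase genes 16 measured lower. Srp19, a signal recognition particle subunit, measured 7.69, 7.57 and 7.97 in KO and 7.31, 7.39 and 7.53 in WT, higher on every KO array. Its change was 0.33 (0.22 without KO replicate 3), with a limma adjusted p of 0.509. Dad1, an oligosaccharyltransferase subunit, had 0.22, and -0.01 under scaling by the array median.

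Of 15 further signalling genes 7 measured lower, with a median of 0.03 and a range of -0.42 to 0.74. The highest was Ern2, a relative of Ern1, detected on 2 of 3 KO and 2 of 3 WT arrays. It measured 7.05, 5.17 and 5.73 in KO and 4.90, 5.41 and 5.43 in WT, with overlap and KO replicate 1 the highest array. Nfya, a subunit of NF-Y, the factor that binds the CCAAT part of ERSE, measured 6.59, 6.49 and 6.74 in KO and 7.04, 6.95 and 6.86 in WT. The groups did not overlap, and the change was -0.34 ± 0.12 (SE; limma adjusted p = 0.432), and -0.16 with the authors' log2 values. Ppp1r15b, a subunit of the phosphatase that reverses eIF2 phosphorylation, had -0.42, and -0.16 without KO replicate 1, its lowest array.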

How the data were processed

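From each sample 10 ng of RNA was amplified and labelled with biotin, per the labels' protocols. The authors deposited linear probe intensities, not normalised between arrays, and a detection p-value per probe and array, per the file headers; scanner and summary software were not given in the sources used here. They also deposited log2 values whose quartiles match on every array, used as an alternative. Intensities of 45281 probes were background-corrected with the detection p-values and quantile-normalised (limma 3.58.1 neqc, offset 16, R 4.3.3). Probes with a detection p under 0.05 on 3 or more arrays were kept (16287), the brightest per gene, with GEO's platform annotation for names (34885 probes had 1 symbol, 18 several, 10378 none). limma's lmFit and eBayes compared 3 KO with 3 WT arrays, with Benjamini-Hochberg adjustment over 11241 features, of which 2405 were unnamed probes. The number of arrays limits the precision. No 2 arrays held identical values. The number of unmapped value columns was 0.

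The members and lists were chosen with earlier results of these data known. Full statistics were given for the 8 members of smallest unadjusted p, the log2 change for the rest, and up to 5 genes from each other list. Promoter windows were RefSeq's, and 30 of 36 members matched; Hyou1, Manf, Atf6, Derl1, Sec61a1 and Ssr2 did not. Alternatives were the authors' log2 values, another background correction, median scaling, filters, probe averaging, a trended robust prior, weights per array, a block on replicate number and each array left out. The statistics code was tested on simulated data.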

Additional observations from a re-analysis of the deposited data

How the results depend on the processing

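No ER gene passed the test under any of the 15 alternatives. Of 403 ER gene values under alternatives 372 kept their sign, 31 turned it, and all stayed on their side of the threshold; the cause of the turns was not tested. The genes past the test numbered 7 in all, and 31 with the authors' log2 values, 26 with normexp offset 50, 20 with median scaling (6 higher and 14 lower, against 4 higher and 3 lower), 15 with the strict detection filter, 2 with the replicate block, 89 with array weights and 40 with the trended robust prior. With an array left out they numbered 1 to 11. ER genes at an unadjusted p under 0.05, 1 of 27, became 4 with the authors' log2 values and the trended robust prior, and 5 with median scaling. They were 3 with no filter and with array weights, and 2 with normexp offset 50, the strict filter and the replicate block. With an array left out these ER genes numbered 0 to 3. The share of all named genes at that threshold was 8.78% in the main fit and was not counted under the alternatives. These counts are therefore not a result about the ER genes. Same-numbered KO and WT arrays deviated from their group means with correlations of -0.10, -0.27 and 0.15, and differently numbered ones with -0.20 to 0.26. With 3 arrays in a group, these values cannot decide whether the replicate numbers pair the arrays.

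The ER median, -0.09, became -0.29 with median scaling, and ran over -0.13 to 0.0034 with an array left out, highest without KO replicate 1. The amino acid response median moved to -0.49 with median scaling and -0.18 with no filter, where more dim genes are tested, and over -0.35 to -0.21 with an array left out. The gap between both lists was 0.11 with no filter. ER genes lower in KO numbered 13 to 21 with an array left out. KO replicate 1 was the lowest array for 18 to 26 ER genes over the 14 alternatives that keep it. The difference in mean array signal, KO minus WT, was -132.8 to -49.1 with an array left out.

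Signs turned with median scaling for Hsp90b1 (-0.14), Pdia4 (-0.15), Ero1lb (-0.015), Ern1 (-0.017), Syvn1 (-0.038), Edem2 (-0.18), Ssr3 (-0.21), Sec63 (-0.18) and Dad1 (-0.011), with array weights for Hsp90b1 (-0.0032), Sel1l (0.032), Sec61g (0.0201) and Ssr1 (0.0094), and with probe averaging for Edem2 (-0.095), Sec61a1 (0.031) and Sec63 (-0.0402). With an array left out the changes ran over -0.028 to 0.16 for Hsp90b1, -0.46 to 0.0034 for Dnajb9, -0.015 to 0.15 for Pdia4, -0.16 to 0.022 for Xbp1, -0.10 to 0.051 for Sel1l, -0.012 to 0.10 for Edem2, -0.10 to 0.035 for Sec61a1, -0.18 to 0.0104 for Sec61g, -0.17 to 0.0088 for Ssr1, -0.12 to 0.012 for Ssr2, -0.065 to 0.10 for Ssr3 and -0.029 to 0.10 for Sec63. Probes near background, such as that of Hspa5, limit what the arrays can show of the chaperones.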

Other observations

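The UFM1 conjugation system attaches the modifier Ufm1 to ribosomes at the ER and serves ER quality control. Ufm1 itself was not detected, and of 6 further genes of the system that were tested 4 measured lower in KO, none past the test, with a median log2 change of -0.08. The processing proteases gave the largest values. Ufsp1 measured 5.94, 6.05 and 5.64 in KO and 6.09, 6.54 and 6.11 in WT, with no overlap between the groups, a change of -0.37 and a limma adjusted p of 0.577. That change was -0.22 without WT replicate 2 and -0.13 with the authors' log2 values. Ufsp2 measured 9.86, 10.21 and 10.20 in KO and 10.54, 10.20 and 10.51 in WT, where the groups overlapped, a change of -0.32 and a limma adjusted p of 0.577. That change was -0.21 without KO replicate 1 and -0.08 over the mean of its probes.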
